A study of Mus musculus with 15 samples.

Results

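*Fgf10*, the FGF receptor genes *Fgfr1*, *Fgfr2* and *Fgfr3*, and 6 feedback or target genes of FGF-ERK signaling (*Spry1*, *Spry2*, *Spry4*, *Etv5*, *Dusp4* and *Dusp6*) were followed in RNA-Seq data from mouse brains at E16.5. These 10 genes were taken from a fixed list of names and matched by Ensembl identifier among the 19475 genes with values. All 10 were measured, and all 10 passed the filter on low values (a mean of at least 5 over the embryos), which left 16507 genes for testing. *Fgf10* was selected on its difference between genotypes in these embryos, so its genotype differences are given as a description and without a test. Where it is counted among genes past a threshold, the count includes it for completeness and nothing rests on it, and its correlations use deviations from the genotype means, which hold no genotype difference. The other 9 genes were listed for their place in the pathway. The embryos were 5 WT, 5 *Tbr1*+/K228E (heterozygous) and 5 *Tbr1*K228E/K228E (homozygous) animals of the C57BL/6J strain, with 3 females and 2 males in each genotype. The K228E knock-in changes a residue of the transcription factor TBR1 at its own locus, so the mutant protein is made wherever *Tbr1* is active, and the selection cassette was removed with a protamine-Cre line. The study's text names the tissue as forebrain and the labels name it as brain, and nothing in either says which embryos shared a litter. Values are normalized read counts, that is, estimated reads per gene divided by a size factor for each embryo.

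Fibroblast growth factors are secreted proteins that bind receptor tyrosine kinases together with heparan sulfate and, through adaptor proteins, switch on the RAS-ERK cascade. ERK in turn raises the transcription of ETS-family factors such as *Etv5* and of inhibitors that dampen the pathway, among them the Sprouty proteins and the dual-specificity phosphatases, so the RNA of these genes is often used as a readout of FGF activity. In the developing cerebral cortex, FGF10 is known for promoting the maturation of radial glia from neuroepithelial cells, FGFR1 to FGFR3 are present in cortical progenitors, and FGF signaling helps to set up the front-to-back pattern of the cortex.

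The promoter windows are shown because *Fgf10* had the largest difference of the 10 genes and *Etv5*, an ETS-family gene, varied closely with the receptor genes. RefSeq windows on GRCm38.p6 were found for 7 of the 10 genes, 9 windows in all, and the 250 bases before the transcription start are printed for a pair of them. Fgf10 is on the plus strand, at chr13:118714449-118714698, and the Etv5 window, at the more downstream of its start sites, is on the minus strand at chr16:22438369-22438618. Capitals mark GGAAGT, the core letters of an ETS site.
Fgf10: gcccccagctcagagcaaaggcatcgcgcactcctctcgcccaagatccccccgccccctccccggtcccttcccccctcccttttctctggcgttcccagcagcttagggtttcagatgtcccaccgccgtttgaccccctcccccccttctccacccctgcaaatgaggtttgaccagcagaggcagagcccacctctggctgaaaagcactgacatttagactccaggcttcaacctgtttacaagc
Etv5: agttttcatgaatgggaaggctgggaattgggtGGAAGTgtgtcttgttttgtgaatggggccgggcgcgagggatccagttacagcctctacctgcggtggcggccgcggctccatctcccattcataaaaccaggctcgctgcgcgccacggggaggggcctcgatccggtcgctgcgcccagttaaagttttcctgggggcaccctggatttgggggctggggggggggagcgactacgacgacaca
The 300-base windows, which also take in 50 bases after the start, were searched on both strands for a T-box motif (GGTGTGA, in 3.98% of all 32851 windows), an ETS motif (CCGGAAG, in 8.86%), an AP-1 motif (TGANTCA, in 7.81%) and a CRE (TGACGTCA, in 1.79%). No window of these genes held any of them. The shorter T-box core GTGTGA (in 14.5% of all windows), which lies within the T-box motif, and the ETS core GGAAGT (in 23.8%) were then added. The ETS core was found in the printed Etv5 window alone, starting at base -217 from the start site and again at base 3 after it. The Etv5 window at the more upstream start site did not hold it, and the T-box core was in no window. A missing match says only that these letters were not in these windows.

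The genes differ widely in level. Per kilobase of exon, WT embryos had 1267 ± 107 (SD, n = 5) normalized read counts of *Dusp4*, a nuclear phosphatase that inactivates ERK, and 419 ± 57.6 of *Fgfr1*. A middle group followed, with *Etv5* at 302 ± 48.5, *Spry2* at 275 ± 33.5, *Fgfr3* at 268 ± 36.6 and *Dusp6*, a cytoplasmic ERK phosphatase, at 249 ± 8.40, and these neighbors did not differ beyond their SD. *Spry1* at 147 ± 8.82 and *Fgfr2* at 132 ± 12.5 per kilobase were also within their combined spread. *Spry4* stood at 45.1 ± 8.20 and *Fgf10* was the lowest of the 10 genes, at 28.3 ± 4.99 per kilobase. These levels per kilobase rest on the union of annotated exons, and no isoform was resolved.

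The deposited values summed to between 30.5 and 31.8 M per embryo (M, megareads), and the smallest increments among low values put sequencing depth at about 26.2 to 37.9 M reads. The mutated gene itself, *Tbr1*, had a normalized read count of 3537 ± 1049 (SD, n = 5) in WT, 6269 ± 1532 in heterozygous and 11366 ± 3160 in homozygous embryos. The cortical marker *Neurod6* was abundant in every embryo, with values between 3502 and 11277. The embryos were not alike in the tissue they held. Summed values of 17 Hox genes, which mark hindbrain and spinal cord, lay above 1000 in 3 embryos (1154 and 3287 in WT replicates 1 and 4, and 3961 in heterozygous replicate 1) and between 4.21 and 577 in the other 12. Summed values of 11 meningeal genes ranged from 472 to 33792. Those of 7 cortical genes, *Tbr1* among them, ranged from 17660 in WT replicate 4 to 53511 in homozygous replicate 3. *Tbr1* alone made up 2097 and 16015 of these sums, so its difference between genotypes is part of this range. In such bulk samples, fewer cells of a type and less RNA per cell cannot be told apart.

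*Fgf10* (ENSMUSG00000021732), which encodes a secreted ligand of the FGF7 subfamily, was higher in homozygous embryos than in all others. Its normalized read counts in the 5 WT embryos were 118, 126, 108, 152 and 96.2. In the heterozygous embryos they were 116, 101, 90.5, 88.0 and 89.8. In the homozygous embryos they were 197, 173, 266, 219 and 178. Every homozygous embryo lay above every WT and every heterozygous embryo, whereas the WT and heterozygous values overlapped. The means were 120 ± 21.1 (SD, n = 5), 96.9 ± 11.6 and 207 ± 38.0 in WT, heterozygous and homozygous embryos. On the log2(value + 1) scale the homozygous mean was 0.78 (standard error 0.14) above WT, a 1.71-fold difference, and 1.07 (standard error 0.14) above the heterozygous mean, a 2.10-fold difference. The heterozygous mean had a log2 difference of -0.30 (standard error 0.14) from WT and lay on the far side of WT from the homozygous mean. Its log2 distance from the midpoint of WT and homozygous embryos was -0.68. Leaving out each embryo in turn kept the homozygous difference from WT between 0.68 and 0.87, and the other processing alternatives gave 0.73 to 0.90. The heterozygous difference from WT ran from -0.37 to -0.21 with each embryo left out and from -0.30 to -0.18 over the other alternatives.

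Hox levels are given beside these values because they differed between embryos. The 5 homozygous embryos had Hox sums between 11.0 and 577, against a WT range of 11.9 to 3287. The lowest of them, 11.0 in replicate 3, lay just below the WT range. Within genotypes, embryos with higher mean log2 Hox levels tended to have more *Fgf10* (Pearson's r = 0.51, permutation test within genotypes, p = 0.0499, adjusted p = 0.249 over 120 combinations of a gene and a marker list; Spearman's rho = 0.44, p = 0.118). Without the 2 embryos farthest from the median of the *Fgf10* deviations, r was 0.66. The WT embryo with the highest *Fgf10* value, replicate 4, was also the WT embryo with the highest Hox sum, and the same held for heterozygous replicate 1. Among homozygous embryos the highest *Fgf10* value, 266 in replicate 3, went with the lowest Hox sum, 11.0. The summed meningeal level of that embryo was 825, against a homozygous range of 650 to 22926. The part of either marker list in the *Fgf10* values was not tested beyond the fit with both as covariates, which is included in the ranges above.

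**Figure D1:**
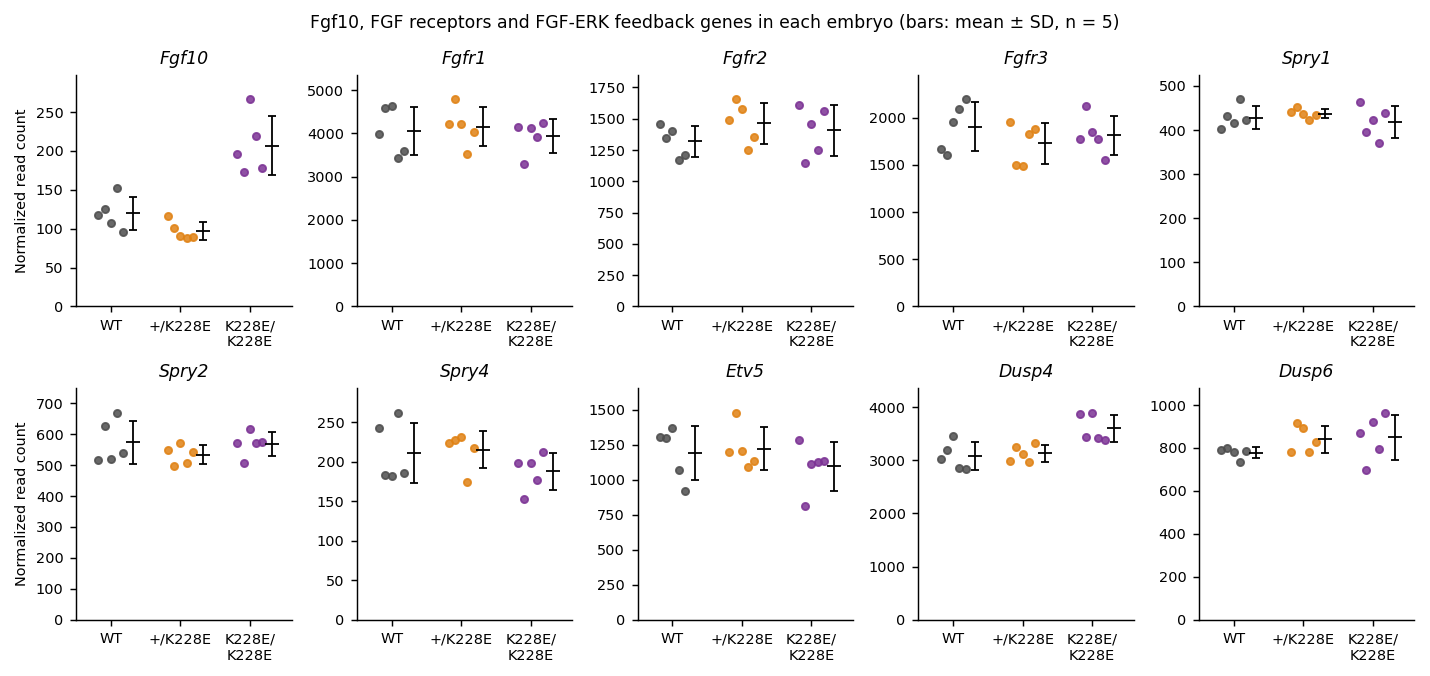
Normalized read counts of the 10 genes in each of the 15 embryos, grouped by genotype on the horizontal axis, with black bars for the mean ± SD of 5 embryos and each vertical axis starting at 0. The *Fgf10* points of the homozygous embryos (173 to 266) lie above all WT (96.2 to 152) and heterozygous (88.0 to 116) points, whereas the groups overlap for the other genes except for homozygous and heterozygous *Dusp4*.

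Among the 3 receptor genes, none passed the threshold in any comparison. *Fgfr1* (ENSMUSG00000031565), the receptor gene with the highest level here, had values of 3984, 4596, 4642, 3435 and 3593 in WT embryos. The heterozygous values were 4222, 4787, 4228, 3521 and 4037, and the homozygous values were 4141, 3285, 4136, 3915 and 4245. The 3 groups lay over one another, and the log2 difference from WT was 0.04 (95% interval -0.17 to 0.25) in heterozygous and -0.03 (95% interval -0.24 to 0.18) in homozygous embryos (limma, adjusted p = 0.999 and 1.00).

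*Fgfr2* (ENSMUSG00000030849) encodes the receptor whose IIIb form, made in epithelia, is the main receptor for FGF10. Gene-level values do not separate IIIb from IIIc. Its values were 1461, 1349, 1406, 1171 and 1209 in WT, 1486, 1655, 1577, 1251 and 1354 in heterozygous, and 1614, 1147, 1456, 1254 and 1562 in homozygous embryos. The log2 difference from WT was 0.15 (95% interval -0.07 to 0.36) in heterozygous and 0.09 (95% interval -0.13 to 0.30) in homozygous embryos, with limma's adjusted p at 0.999 and 1.00. *Fgfr3* (ENSMUSG00000054252), a receptor gene that in the embryonic forebrain is strongest in progenitors, ranged from 1603 to 2194 in WT, from 1493 to 1958 in heterozygous and from 1555 to 2124 in homozygous embryos. Its log2 differences from WT were -0.14 (95% interval -0.36 to 0.09) and -0.06 (95% interval -0.29 to 0.16). The intervals leave room for receptor differences of up to about 0.36 on the log2 scale in either direction.

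The Sprouty genes, whose products block the step from receptor to ERK, overlapped between genotypes as well. *Spry1* (ENSMUSG00000037211) had the smallest spread of the 3 in heterozygous and WT embryos but not in homozygous embryos, with a coefficient of variation of 2.44% among heterozygous, 5.99% among WT and 8.65% among homozygous embryos, and means of 437, 428 and 418. *Spry2* (ENSMUSG00000022114) had means of 574 ± 69.9 (SD, n = 5) in WT, 534 ± 30.1 in heterozygous and 569 ± 39.4 in homozygous embryos. *Spry4* (ENSMUSG00000024427) was measured at 243, 183, 182, 262 and 186 in WT, where replicates 1 and 4 stood above the other 3, and these are the WT embryos with Hox sums above 1000. The heterozygous values of *Spry4* ran from 174 in replicate 4 to 231, with a median of 224. That median was the value of replicate 1, the heterozygous embryo with a Hox sum above 1000. The homozygous values were 198, 153, 198, 177 and 213. The homozygous log2 difference of *Spry4* from WT was -0.16 (95% interval -0.44 to 0.12), and it was 0.02 without the 3 embryos with high Hox sums, an alternative chosen after seeing the data. Within genotypes, *Spry4* and the mean log2 Hox level had r = 0.36 and rho = 0.29, which did not pass (permutation test, adjusted p = 0.629). With the Hox and meningeal levels as covariates the homozygous difference of *Spry4* from WT stayed negative. The part of hindbrain tissue in the *Spry4* values was not tested beyond these. Across the 3 Sprouty genes, limma's adjusted p was at least 0.996 in every pairwise comparison.

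*Etv5* (ENSMUSG00000013089), which encodes an ETS-family transcription factor induced by ERK, was measured at 1307, 1303, 1369, 1069 and 919 in WT and at 1196, 1480, 1209, 1089 and 1138 in heterozygous embryos. The homozygous values were 1288, 811, 1115, 1127 and 1137. Replicate 2 was the lowest homozygous embryo, and the groups overlapped. The log2 difference from WT was 0.04 (95% interval -0.23 to 0.32) in heterozygous and -0.12 (95% interval -0.40 to 0.15) in homozygous embryos.

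*Dusp4* (ENSMUSG00000031530) came closest to the threshold of the 9 tested genes. Its values were 3032, 3186, 3462, 2856 and 2837 in WT embryos. In heterozygous embryos they were 2989, 3257, 3111, 2967 and 3318, and in homozygous embryos 3868, 3430, 3895, 3426 and 3386. All homozygous values were above all heterozygous values, and WT replicate 3 was the only WT embryo that reached into the homozygous range. The homozygous mean was higher than WT by 0.23 (standard error 0.06) on the log2 scale, a 1.17-fold difference, with an unadjusted p of 0.00177 and an adjusted p of 0.512 over all genes in limma. Against heterozygous embryos the log2 difference was 0.20 (95% interval 0.07 to 0.33, adjusted p = 0.837 in limma), and that of heterozygous embryos from WT was 0.03 (95% interval -0.10 to 0.16). Over the alternatives, including each embryo left out, the adjusted p of the difference from WT ranged from 0.161 to 1.00 and the log2 difference from 0.19 to 0.27. In these embryos *Dusp4* deviations also followed the level of 8 ganglionic eminence and striatum markers (r = 0.78, past the threshold by Pearson's r but not by Spearman's rho, as described below). The 8 markers all had a positive homozygous difference from WT (median 0.08 on the log2 scale), and none of them passed the threshold. Between heterozygous and WT embryos their median difference was 0.18, with 5 higher and 3 lower. Between homozygous and heterozygous embryos it was -0.05, with 4 higher and 4 lower. Their part in the *Dusp4* difference was not tested.

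*Dusp6* (ENSMUSG00000019960), whose product is specific for ERK, was tightly grouped in WT at 790, 800, 783, 733 and 787. It spread more widely in heterozygous embryos, at 782, 917, 894, 781 and 827, and in homozygous embryos, at 870, 699, 923, 794 and 965. Its coefficient of variation was 3.38% in WT, 7.51% in heterozygous and 12.4% in homozygous embryos, and these spreads were not compared by a test. The log2 difference from WT was 0.11 (95% interval -0.06 to 0.27) in heterozygous and 0.12 (95% interval -0.05 to 0.29) in homozygous embryos, with limma's adjusted p at 0.999 and 1.00.

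**Figure D2:**
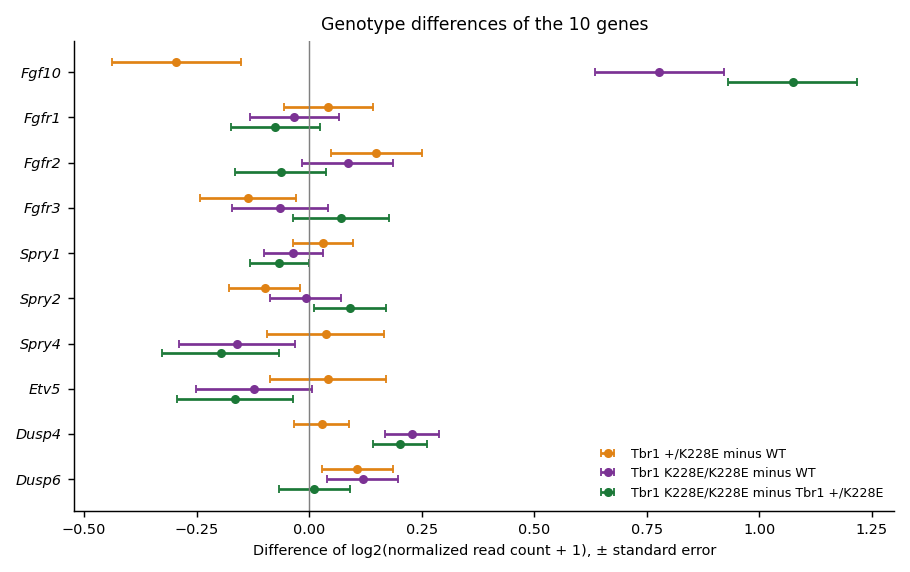
Differences of mean log2(normalized read count + 1) between genotypes for each of the 10 genes, with bars of ± 1 standard error from the fit to all 15 embryos and the vertical line at 0. The homozygous points of *Fgf10* stand apart at 0.78 and 1.07, and those of *Dusp4* lie at 0.23 and 0.20, whereas the differences of the other genes are within ± 0.20.

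Over the whole list, 0 of the 10 genes passed an adjusted p of 0.05 between homozygous and WT embryos, where 0.127% of all tested genes (21) did so. *Fgf10* was counted here, and with some other settings it passed. At an unadjusted p under 0.05 the count among the 9 tested genes was 1 (*Dusp4*), against 3.23% of all genes. Between heterozygous and WT embryos 0 of the 10 passed, as did 0% of all genes, and none of the 9 had an unadjusted p under 0.05, against 1.79% of all genes. Between homozygous and heterozygous embryos 1 of the 10 passed, *Fgf10*, against 0.0788% of all genes, and nothing is read from this count because *Fgf10* was chosen by its difference. No gene of the list departed from the midpoint of WT and homozygous embryos past the threshold, where the share of all genes was 0%, and among the 9 the adjusted p was at least 0.993.

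Genes whose embryos did not overlap were also counted. Between homozygous and WT embryos, *Fgf10* was the sole gene of the 10 whose embryos did not overlap, against 0.594% of all genes. Between homozygous and heterozygous embryos they were *Fgf10* and *Dusp4*, against 0.878% of all genes, and between heterozygous and WT embryos no gene of the list did so, against 0.260% of all genes. The median log2 difference of the 10 genes from WT was 0.03 in heterozygous and -0.02 in homozygous embryos, beside -0.002 for all tested genes in both comparisons.

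The rest of the pathway was followed through 77 further genes in 7 groups by role, of which 73 had values and 71 passed the filter. None of the 71 passed the threshold in any comparison or setting. Before adjustment, 6 genes had a p under 0.05 between homozygous and WT embryos, 0 between heterozygous and WT embryos and 4 between homozygous and heterozygous embryos, beside 534, 295 and 544 of all 16507 genes.

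Among the other secreted ligands, 14 of 17 had values and 12 were tested. Of these, 10 had a lower and 2 a higher mean in homozygous than in WT embryos, and the median log2 difference was -0.27, against 0.78 for *Fgf10*. In heterozygous embryos 9 were lower and 3 higher than WT, with a median of -0.13, against -0.30 for *Fgf10*. Most of these ligands were scarce. *Fgf9*, a ligand made by neurons and glia, *Fgf15*, a ligand of forebrain progenitors, and *Fgf3* had the highest WT means, at 248, 259 and 172. *Fgf7*, the ligand gene most closely related to *Fgf10*, stood at 37.4 ± 9.34 (SD, n = 5) in WT, 41.2 ± 5.55 in heterozygous and 35.6 ± 8.73 in homozygous embryos. *Fgf3* was measured at 193, 288, 162, 198 and 19.7 in WT and at 122, 13.8, 59.3, 67.9 and 40.4 in homozygous embryos, so that its low WT value in replicate 5 lay inside the homozygous range. Heterozygous embryos had a mean of 133 ± 42.0, with a log2 difference of -0.03 from WT. The homozygous log2 difference of *Fgf3* from WT was -1.38 (95% interval -2.75 to -0.01, adjusted p = 1.00 in limma).

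Among receptors and their partners, *Flrt3*, a membrane protein that binds FGF receptors and promotes their signaling, had 1298, 1235, 1531, 1270 and 1291 normalized read counts in homozygous embryos. It had 1097, 1123, 1171, 1077 and 1186 in WT and 958, 1099, 1031, 1050 and 1183 in heterozygous embryos, so the homozygous embryos overlapped with neither group. Of all tested genes, 0.594% did not overlap between homozygous and WT embryos, and 0.878% between homozygous and heterozygous embryos. The log2 difference was 0.23 (standard error 0.06) from WT and 0.31 (standard error 0.06) from heterozygous embryos, with adjusted p at 0.701 and 0.143 in limma, the smallest of the 71 in both comparisons. Over the alternatives the latter ranged from 0.0774 to 0.444. From these same samples the study called *Flrt3* upregulated in homozygous against WT embryos, with its own DESeq2 fit at an adjusted p under 0.05. The study's p-values were first corrected with an empirically estimated null distribution, a step not used here. The limma fit here did not make that call, and the thresholds of the fits are not alike. Because the samples are the same, the values of *Flrt3* here are not independent evidence. The study also lists *Flrt3* as upregulated among genes shared with earlier results from *Tbr1*-null mice and from mice with a layer-specific *Tbr1* deletion. Those earlier data were not examined here. *Fgfr4*, the remaining receptor kinase gene, had means of 47.3 ± 23.9 (SD, n = 5) in WT, 58.6 ± 25.4 in heterozygous and 83.6 ± 17.6 in homozygous embryos. Its homozygous difference of 0.94 (95% interval 0.20 to 1.68) did not pass the threshold (adjusted p = 1.00 in limma). *Klb*, a co-receptor for endocrine FGFs, was low in all groups, at 10.6 ± 0.94 in WT, 14.2 ± 1.54 in heterozygous and 14.9 ± 3.22 in homozygous embryos. Its heterozygous values (12.6 to 16.0) did not overlap with WT (9.51 to 11.7), the sole case among the 71 genes in that comparison. Of all tested genes, 0.260% did not overlap there, and nothing is read from this single low gene. The log2 difference was 0.39 (adjusted p = 0.999 in limma). *Fgfrl1*, a receptor-like protein without a kinase domain, had a log2 difference of -0.17 between homozygous and heterozygous embryos (adjusted p = 0.996 in limma).

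The adaptors and the RAS-ERK cascade had small differences. All 18 genes were tested, 15 had a higher mean in homozygous than in WT embryos, and the differences ran from -0.11 to 0.07 with a median of 0.03. In heterozygous embryos 10 of the 18 were higher than WT, among them the kinase gene *Map2k2*, by 0.07. The 11 heparan sulfate genes, which encode the proteoglycans and enzymes that FGFs need to bind receptors, had homozygous differences between -0.19 and 0.09, the lowest being the sulfotransferase gene *Hs6st2* (-0.19, adjusted p = 1.00 in limma). The 8 other feedback inhibitors with values had a median of -0.04, with *Dusp9*, another ERK phosphatase, at 12.6 ± 6.21 (SD, n = 5) in WT, 7.74 ± 3.11 in heterozygous and 9.18 ± 3.77 in homozygous embryos. Of the 9 other ERK-responsive transcription factors, 4 were higher and 5 lower in homozygous embryos. *Fosl1*, an AP-1 subunit, was measured at 138 ± 11.0 (SD, n = 5) in WT, 135 ± 6.03 in heterozygous and 162 ± 18.3 in homozygous embryos (log2 difference from WT 0.23, adjusted p = 1.00 in limma). Of the 4 FGF-homologous factors, which stay in the cell and bind sodium channels, *Fgf11* had the smallest p, with 864 ± 44.2 in WT, 857 ± 29.4 in heterozygous and 787 ± 35.0 in homozygous embryos (log2 difference from WT -0.13, adjusted p = 1.00 in limma).

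**Figure D3:**
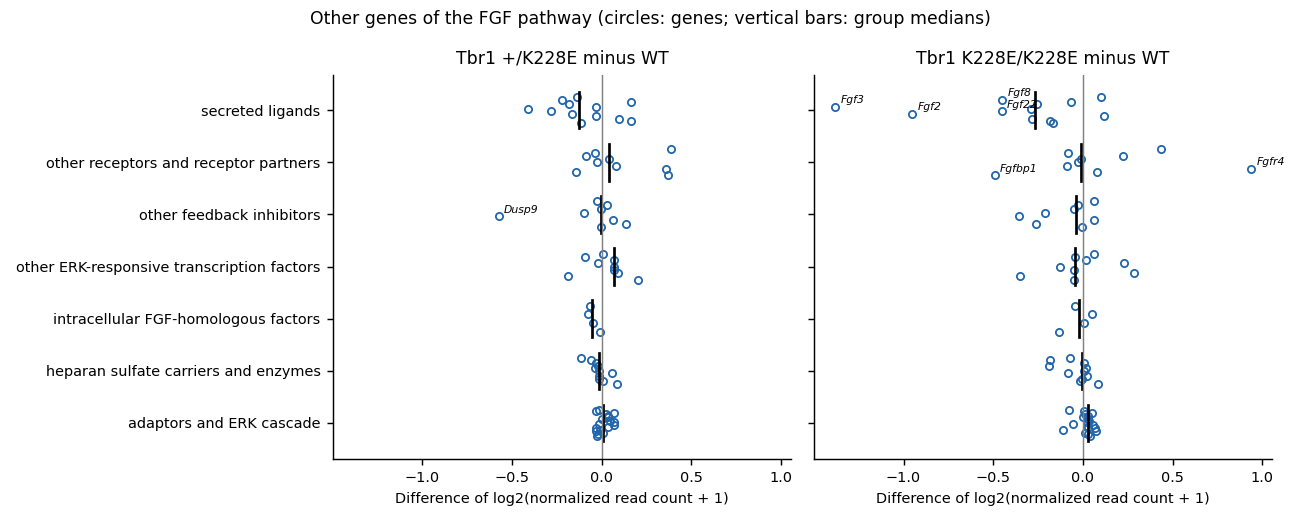
Differences of mean log2(normalized read count + 1) from WT for 71 further genes of the FGF pathway in 7 groups by role, with heterozygous embryos on the left and homozygous embryos on the right. Circles are genes, vertical bars are group medians, and names are given where the difference is over 0.45 in size. The ligand group has its homozygous median at -0.27, whereas the ERK cascade stays between -0.11 and 0.07.

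The 10 genes also varied between embryos of the same genotype, and this was examined by correlating their deviations from the genotype means on the log2 scale over the 15 embryos. Of 45 pairs, 8 passed an adjusted p of 0.05 in a permutation test within genotypes. *Fgfr1*, *Fgfr2*, *Etv5* and *Dusp6* varied together, although the pair of *Etv5* and *Dusp6* (r = 0.62, adjusted p = 0.0717) did not pass. *Etv5* correlated with *Fgfr1* (r = 0.87, rho = 0.86, p = 0.00053, adjusted p = 0.00596) and with *Fgfr2* (r = 0.83, rho = 0.85, p = 0.00018, adjusted p = 0.0048), and *Fgfr1* correlated with *Fgfr2* (r = 0.82, rho = 0.80, p = 0.00024, adjusted p = 0.0048). *Dusp6* correlated with *Fgfr2* (r = 0.81, adjusted p = 0.0193) and *Fgfr1* (r = 0.70, adjusted p = 0.0048). *Fgfr3* ran the other way. Its correlation was -0.72 with *Etv5*, -0.71 with *Fgfr2* and -0.71 with *Dusp6* (adjusted p = 0.0434, 0.0416 and 0.0193). Each of these 8 pairs was also correlated without 2 embryos. For each pair these were the 2 farthest from the median deviation of its first gene, in the order of the opening list. They can therefore differ between pairs. All 8 pairs kept their sign, with r of 0.82 and 0.74 for *Etv5* with *Fgfr1* and *Fgfr2*, but none passed the adjusted threshold with 13 embryos. Why none passed was not tested. Among all 16506 other tested genes ranked by correlation with *Fgfr2*, *Etv5* stood at rank 176, *Fgfr1* at 202 and *Dusp6* at 270, and many genes outside the pathway therefore followed *Fgfr2* more closely.

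None of the 9 pairs with *Fgf10* itself passed. Its correlation was 0.29 with *Etv5*, 0.15 with *Fgfr1*, 0.10 with *Fgfr2*, -0.01 with *Fgfr3*, 0.06 with *Dusp6* and 0.11 with *Dusp4*. Without the 2 farthest embryos it was 0.57 with *Etv5* and 0.50 with *Fgfr1*. The closest was *Spry2*, with r = 0.66 and rho = 0.61 (p = 0.0182, adjusted p = 0.0717), at rank 92 of 16506 genes, and without the 2 farthest embryos r was 0.37.

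**Figure D4:**
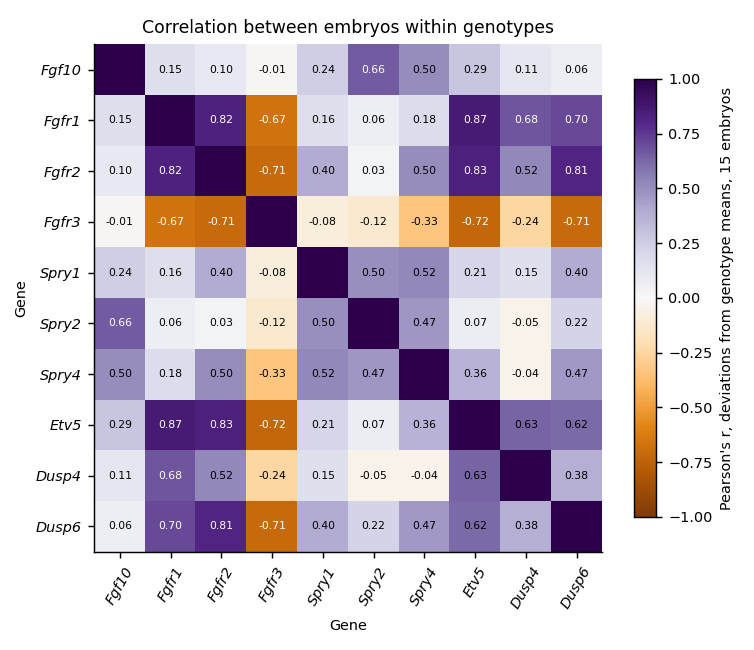
Pearson's r between the deviations of each pair of the 10 genes from their genotype means on the log2 scale, over 15 embryos, with purple for positive and orange for negative values. *Fgfr1*, *Fgfr2*, *Etv5* and *Dusp6* are positively correlated with one another (0.62 to 0.87), *Fgfr3* is negative with each of them (-0.67 to -0.72), and *Fgf10* is at most 0.66, with *Spry2*.

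The same deviations were set against 12 marker lists for the other regions and cell types that a brain sample can hold, and 6 of 120 combinations passed an adjusted p of 0.05. *Etv5* followed 8 radial glia markers (r = 0.84, rho = 0.80, p = 0.00043, adjusted p = 0.0324) and 8 ganglionic eminence and striatum markers (r = 0.87, rho = 0.86, p = 0.0011, adjusted p = 0.033). *Fgfr2* followed the radial glia markers (r = 0.79, rho = 0.78, p = 0.00057, adjusted p = 0.0324), and *Fgfr3* followed 7 thalamus markers (r = 0.75, rho = 0.83, p = 0.00081, adjusted p = 0.0324). With the radial glia markers *Fgfr3* had a negative r of -0.62 (rho = -0.68), which did not pass (permutation test, adjusted p = 0.156). *Fgfr1* (r = 0.81, rho = 0.78) and *Dusp4* (r = 0.78, rho = 0.78) followed the ganglionic eminence and striatum markers with an adjusted p of 0.05 for r, just past the threshold before rounding, and of 0.0586 for rho, which did not pass. The permutations are a random draw, so both calls for r could change with another draw. These correlations were 0.61, 0.75, 0.67, 0.71, 0.79 and 0.63 without the 2 farthest embryos, chosen for each gene by its own deviations. None of them passed then after adjustment over the 120 combinations. Homozygous replicate 2, the embryo with the lowest *Etv5*, *Fgfr1* and *Fgfr2* values of its genotype, also had the lowest mean log2 level of radial glia markers, 11.06. Whether these genes vary beyond what the share of such cells or regions in a sample gives was not tested.

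**Figure D5:**
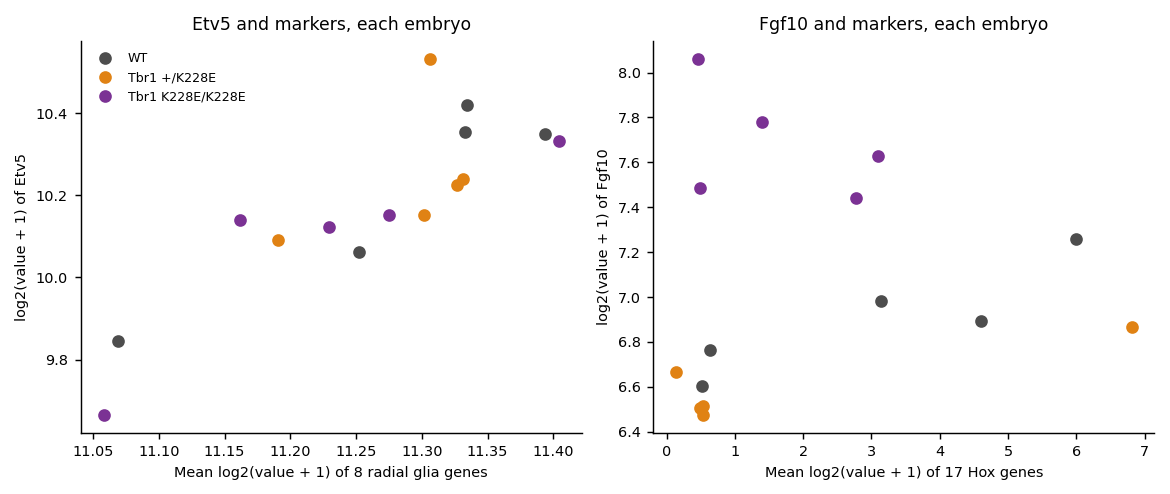
Each point is 1 embryo, colored by genotype. Left, log2(value + 1) of *Etv5* against the mean log2(value + 1) of 8 radial glia markers, where both broadly rise together within each genotype except for heterozygous replicate 2, which is high in *Etv5* alone. Right, log2(value + 1) of *Fgf10* against the mean log2(value + 1) of 17 Hox genes, where all homozygous embryos lie above all others at Hox levels between 0.46 and 3.09.

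Over all tested genes, those most like *Fgf10* in log2 level across the 15 embryos were *Vegfd* (r = 0.87), *Cabp7* (r = 0.85), *3830406C13Rik* (r = 0.85), *Trhr* (r = 0.85) and *Dsc3* (r = 0.85). These are descriptions of levels that include the genotype difference by which *Fgf10* was chosen. By deviations within genotypes, *Spry4* was most like *Fam129a*, *Cfap221* and *Canx* (r between 0.84 and 0.88), *Etv5* was most like *Aldh1a3*, *Bard1* and *Foxm1* (r at 0.95), and *Dusp6* was most like *Slc38a2*, *Arhgap11a* and *Zfp516* (r between 0.90 and 0.92).

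In the GENCODE M21 annotation of GRCm38, *Fgf10* lies on chromosome 13 from 118669791 to 118792115, plus strand, and RefSeq places its start at 118714699. *Fgfr1* lies on chromosome 8 from 25513654 to 25575718, *Fgfr3* on chromosome 5 from 33721674 to 33737068, *Dusp4* on chromosome 8 from 34807297 to 34819894 and *Etv5* on chromosome 16 from 22381309 to 22439719. *Fgfr2* spans 130162451 to 130266808 on chromosome 7 in RefSeq and reaches further in GENCODE, to 133123350. An antisense gene shares exon sequence with *Fgf10* (*Gm16263*, 123 bases), *Fgfr1* (*Gm16159*, 164 bases), *Fgfr3* (*G630022F23Rik*, 998 bases) and *Spry1* (*Gm42922*, 710 bases). The library kit does not mark strand, so reads from such shared bases cannot be told apart, and none of the 4 antisense genes had values of its own.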

How the data were processed

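RNA was measured in 15 mouse brains at E16.5 with a TruSeq RNA Sample Prep Kit v2, and genotype, sex and replicate numbers come from the labels. Per the submitters' processing notes and the methods, the authors estimated transcript abundance with Salmon 0.11.2 on GRCm38 with GC bias correction, summed it to genes with tximport in R 3.5.3 and divided by DESeq2 1.22.2 size factors. The deposited values are therefore a normalized signal, from which whole reads could not be recovered, so no count model was fitted. Of 19475 identifiers, 19452 matched GENCODE M21.

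Values were analyzed as log2(value + 1) with limma 3.58.1 in R 4.3.3 (lmFit, eBayes with trend), all 15 embryos in 1 fit, for 16507 genes with a mean of at least 5. P-values are two-sided, were adjusted by Benjamini–Hochberg over all these genes, and were held against 0.05. Nothing says that embryos came from separate litters, so p-values measure the spread between these samples. Correlations used 100000 permutations within genotypes. The fit was tested on simulated data. The 10 genes and all lists were chosen with earlier results of these data known. The named genes are the 10, *Tbr1*, the 3 higher and 3 lower pathway genes with the smallest p in each pairwise comparison, and the genes most like *Fgf10* (5) and *Spry4*, *Etv5* and *Dusp6* (3 each). A pathway gene that this rule names is not reported here. Other ligands, such as *Fgf7* and *Fgf15*, were named after their values were seen. Fits with other pseudocounts, filters, scalings, covariates and blocks, and without each embryo, are given at the end.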

Additional observations from a re-analysis of the deposited data

Results flagged for a closer look

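In 105 groups of 5 embryos, 9 had a highest or lowest embryo that stood apart by Dixon's criterion, which chance gives in about 1 group in 20. *Spry4* was 174 in heterozygous replicate 4, against 218 to 231 in the other heterozygous embryos. *Dusp6* was 733 in WT replicate 4, against 783 to 800. *Flrt3* was 1531 in homozygous replicate 3, against 1235 to 1298, and *Hs6st2* was 2863 in WT replicate 3, against 2192 to 2372.

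The other 5 were mean log2 levels of marker lists. The Hox level was 6.81 in heterozygous replicate 1, against 0.14 to 0.54, and the meningeal level was 4.28 in WT replicate 3, against 8.68 to 10.03. The pituitary level was 5.63 in WT replicate 1, against 2.07 to 2.51, and 1.91 in heterozygous replicate 2, against 2.63 to 2.92. The radial glia level was 11.19 in heterozygous replicate 4, against 11.30 to 11.33, and this is the embryo with the low *Spry4* value.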

How the results depend on the processing

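The count of the 10 genes past the threshold between homozygous and WT embryos, 0, became 1 (*Fgf10*) with a pseudocount of 0.1 or 10, with upper-quartile scaling, with robust eBayes and with the Hox and meningeal levels as covariates, and it was 0 to 1 with each embryo left out (1 without WT replicate 4). *Fgf10* was chosen by its genotype difference, so these calls carry no weight of their own. Between homozygous and heterozygous embryos the count of 1 became 0 with the replicate number as a block, where the calls over all genes went from 13 to 2 and the log2 difference of *Fgf10* stayed at 1.07. Same-numbered embryos are different animals whose deviations from the group means correlated between -0.23 and 0.51, so the numbers were not taken as pairs, and of 5 embryos, 3 correlated best with their own number between WT and homozygous, 1 between WT and heterozygous and 2 between heterozygous and homozygous embryos. Calls over all genes between homozygous and WT embryos went from 21 to 12 when those genotypes were fitted alone to 14 without a trend and to 6 without the 3 embryos with Hox sums above 1000, an alternative chosen after seeing the data. The count of 0 among the 71 pathway genes held in every fit.

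Correlated pairs numbered 5 with quantile normalization and 0 without the 2 farthest embryos, chosen for each gene. They numbered 3 to 9 with each embryo left out (3 without homozygous replicate 2 and 5 without homozygous replicate 4). The 6 combinations with marker lists became 0 without the 2 farthest embryos and ran from 0 to 8 with each embryo left out. They were 0 without WT replicate 1, 2 or 5 or homozygous replicate 1 or 2, 1 without heterozygous replicate 3, 2 without WT replicate 4, heterozygous replicate 2 or homozygous replicate 4, and 3 without heterozygous replicate 5 or homozygous replicate 3.

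Differences near 0, none of which passed the threshold, changed sign. The *Spry2* difference between homozygous and WT embryos was 0.0102 with quantile normalization, 0.0116 with the Hox and meningeal covariates and 0.0204 without the 3 embryos with Hox sums above 1000. Without those 3, *Fgfr1* between heterozygous and WT embryos was -0.0445, *Spry4* between homozygous and WT embryos 0.0228, and *Dusp6* between homozygous and heterozygous embryos -0.0137. With each embryo left out, the ranges against WT in heterozygous embryos were -0.0005 to 0.0713 for *Dusp4*, -0.0475 to 0.0961 for *Etv5*, -0.0143 to 0.1006 for *Fgfr1* and -0.012 to 0.1185 for *Spry4*. In homozygous embryos they were -0.0898 to 0.0314 for *Fgfr1*, -0.0733 to 0.0073 for *Spry1* and -0.0443 to 0.0499 for *Spry2*. Between homozygous and heterozygous embryos they were -0.0363 to 0.0794 for *Dusp6* and -0.1183 to 0.0074 for *Fgfr2*. The cause of these changes was not tested. The effect of depth on single genes was not tested.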

Other observations

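The effect of the homozygous genotype was also compared between males and females for the 9 genes with a test, as was that of the heterozygous genotype. None of the 18 interaction terms passed adjustment over all genes (limma, smallest adjusted p = 0.751 after the Benjamini–Hochberg step), and 3 had an unadjusted p under 0.05. These 3 were the homozygous effects on *Fgfr1*, whose log2 difference from WT was higher in males than in females by 0.41, on *Etv5*, higher by 0.53, and on *Fgfr3*, where male minus female was -0.50. Each sex and genotype held 2 or 3 embryos. The share of all tested genes with such an unadjusted p was not counted, so nothing is read from the count of 3. The 3 genes are among those whose deviations correlated between embryos of the same genotype.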
